A study of Mus musculus with 39 samples.

Results

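The nuclear genes for the subunits of the mitochondrial respiratory chain and the ATP synthase were followed through 13 groups of sorted mouse monocytes and joint macrophages. Within this family, genes were taken by symbol. A symbol was taken when it began with Ndufa, Ndufb, Ndufc, Ndufs, Ndufv, Uqcr, Atp5 or with Cox followed by a digit in the range of the subunit genes, or when it was Sdha, Sdhb, Sdhc or Sdhd, and the Ndufaf assembly factors were left out. This gave 86 of the 23337 gene symbols in the count tables. Of these, 83 encode subunits, with 36 in complex I, 4 in complex II, 8 in complex III, 20 in complex IV and 15 in complex V, the ATP synthase. The other 3, Atp5s, Atp5sl and Cox4nb, share only the name, were called in no comparison, and are left out of all counts and sums that follow.

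The mice were C57BL/6 animals of 21 to 37 weeks. HUPO mice had the genotype Flipflox/floxCD11ccre and established arthritis, and controls had the genotype Flipflox/floxCD11c+. Both arms thus carried the floxed Flip allele (Flip is the protein of the gene Cflar), and Cre was driven by CD11c, the integrin gene Itgax, which dendritic cells and several macrophages use. The blood groups were CM, the classical monocytes, and NCM, the non-classical ones. The joint groups were the ankle synovial subsets FI1, FI3, FH1 and FH2. All of these came from HUPO and from control mice, and FI2 from HUPO mice alone. The ankle subsets are called macrophages here, although FI1 also carried neutrophil transcripts, given below. Each of the 13 groups had 3 libraries, 39 in all, made from more than 400 sorted cells each. Many libraries share a number in their titles, and the 12 HUPO ankle libraries outside FI2 carry 4 such numbers against 5 in the 12 control ankle libraries (suffixes set aside), so libraries pooled over ankle subsets are not independent. Whether libraries of a group are separate animals is not stated beyond these numbers, and p-values measure the spread between libraries.

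The respiratory chain passes electrons to oxygen and pumps protons across the inner mitochondrial membrane. Complex I takes electrons from NADH and complex II from succinate, complex III passes them to cytochrome c, complex IV hands them to oxygen, and complex V uses the proton gradient to make ATP. In macrophages the balance between this chain and glycolysis shifts with activation, and complex I and complex II are known as sources of oxygen radicals. The catalytic cores of complexes I, III, IV and V also need subunits made in the mitochondrion from mitochondrial DNA. No symbol for those was matched in the tables, and they are not analysed here.

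Libraries held 3116615 to 14100712 counts and detected 7390 to 10804 genes, and the correlation between libraries of a group ran between 0.657 and 0.829. The mean level of Cflar, the targeted gene, was below that of controls in 4 of the 6 HUPO populations (CM, FI3, FH1 and FH2), with no overlap between libraries in FH1 and FH2. In NCM it averaged 47.4 CPM (counts scaled to a common library total) in HUPO and 21.7 CPM in control libraries. FI1 of both arms carried neutrophil transcripts, with 13 of 13 matched markers detected and a summed level of 18321 to 27061 CPM in HUPO and 17224 to 24091 CPM in control libraries, and its fibroblast markers summed to 1803 to 6286 CPM in HUPO and 2365 to 12438 CPM in controls. Macrophage and monocyte markers were high in FI1 as well. Of 12 matched, 10 had counts in HUPO FI1 and 12 in control FI1. They summed to 43110 to 46644 CPM in HUPO and 36010.5 to 46025 CPM in control FI1. In control FH1, 11 of the 12 had counts, with sums of 30496 to 38090 CPM. Single markers of this list were absent in some groups. Mertk, a macrophage receptor, was listed at 0 in the CM libraries of both arms, in control NCM and in HUPO FI1. Itgax was listed at 0 in HUPO CM, HUPO FI1 and control FH1. The HUPO CM library titled Bld_1606_HUPO_C stood apart, with the fewest genes detected and 4383 CPM of neutrophil markers, against 387 and 519 CPM in the other HUPO CM libraries. Calls lost without it are given beside their results.

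Most of the common subunits were among the well-detected genes, and their levels differed widely within a complex. Levels between genes are given as the mean CPM over 39 libraries per kilobase of transcript. In complex IV, Cox4i1, which stabilises the catalytic core, stood highest of all 83 genes at 825 CPM per kilobase, followed by Cox6a1 at 608 and Cox6b1 at 538. In complex V the catalytic beta subunit Atp5b was at 514, the epsilon subunit Atp5e at 417 and the c-ring gene Atp5g3 at 400. All 6 were above the highest subunits of complex I, the accessory genes Ndufa1 at 370 and Ndufa2 at 321.

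In complex II the iron-sulphur subunit Sdhb stood at 296 CPM per kilobase and the membrane anchor Sdhd at 202. The flavoprotein Sdha was at 90.0 and the second anchor Sdhc at 32.4. The proteins of these 4 genes sit in the complex in equal numbers, while their transcripts per kilobase were unequal. In complex III, Uqcr10, a small subunit, was highest at 358 CPM per kilobase, then the core protein gene Uqcrc1 at 234, and its partner Uqcrc2 was lowest at 64.4. Several common subunits were close to 0 by comparison, with Ndufab1 at 1.84, Cox7c at 9.09 and Atp5l at 9.27 CPM per kilobase.

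Part of these low levels falls on genes that share sequence with other genes. Of the windows of 75 bases, the read length, in the Atp5g2 transcript, 86.9% also occur in another gene's transcript in GENCODE M21. The share was 76.0% for Atp5l, 50.4% for Cox7c, 40.3% for Atp5h, 35.2% for Ndufb4, 32.4% for Ndufs5 and 31.3% for Ndufb6. How the authors' counting treated reads that match several genes is not given in the sources used here, so the levels of these genes are uncertain. Atp5g1 and Atp5g2, which encode the same mature c-ring peptide as Atp5g3, stood at 8.87 and 0.257 CPM per kilobase, but the Atp5g2 value in particular cannot be read as its true level.

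**Figure D1:**
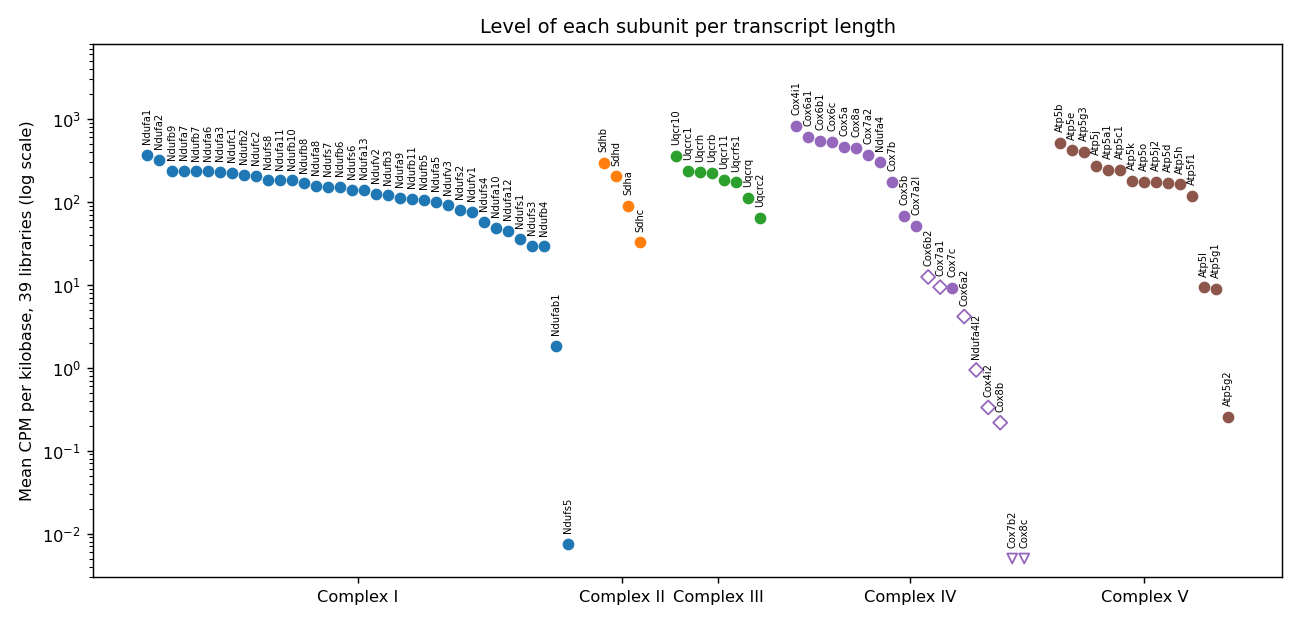
Mean level of each subunit over 39 libraries, in CPM per kilobase of transcript on a log axis, by complex, with 1 point per gene. Cox4i1 is highest at 825 CPM per kilobase. The lower ends of complexes I, IV and V hold some genes with shared sequence or a tissue-restricted pattern. They also hold genes that share little sequence, such as Ndufs1 and Atp5g1, while Ndufb6, with 31.3% of windows shared, lies higher.

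The paralogs of complex IV known from muscle, lung or testis were nearly silent, and a few of them differed by population. Cox7b2 and Cox8c, testis forms, had 0 counts in all 39 libraries, where 3 counts would correspond to 0.105 to 0.179 CPM in a group. Cox8b, the muscle form beside Cox8a, had counts in 2 libraries, and Cox4i2, the lung form beside Cox4i1, in 7. Ndufa4l2, a hypoxia-induced paralog of the complex IV subunit Ndufa4, had counts in 7 libraries, and it was listed at 0 in all 3 libraries of HUPO FH2, against 12.5, 7.54 and 7.18 CPM in control FH2. That difference did not pass the test (edgeR adjusted p = 0.627).

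Cox7a1, the heart and muscle form beside Cox7a2, had counts in ankle libraries alone. It was listed at 0 in all 12 blood libraries and had counts in 22 of the other 27. The HUPO ankle libraries outside FI2 gave 0 to 25.9 CPM with a median of 5.07, and the control ankle libraries gave 0 to 15.4 CPM with a median of 2.89. Of these, 2 of 12 HUPO and 3 of 12 control libraries were at 0, so ankle and blood overlapped at that value. Against the level that 3 counts over the group would give, the ankle mean was at least 86.0-fold higher than blood in HUPO mice and at least 84.0-fold higher in controls. These folds rest on a counting floor and are not a test. Cox7a1 passed the filter on low counts only through ankle libraries, so its call carries no information of its own. That call was lost in 1 fit that leaves out 1 library in each arm. The skeletal muscle markers summed to at most 62.7 CPM in any library, and their part in the result was not tested.

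Cox6a2, the muscle form beside Cox6a1, had counts in 13 libraries, and 11 of these were FH libraries. HUPO FH1 held 6.81, 5.63 and 9.48 CPM and control FH1 held 13.5, 23.1 and 10.1 CPM. Its level in HUPO FH2 was 6.19, 3.90 and 6.90 CPM, against 0, 3.86 and 3.22 CPM in control FH2. Cox6b2, the testis form beside Cox6b1, had scattered counts in 24 libraries and no more than 29.9 CPM in any of them.

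Summed over the 83 subunits, transcript levels were higher in HUPO than in control libraries in blood monocytes and in the FI subsets, and closer together in the FH subsets. HUPO CM libraries summed to 13624, 14127 and 18796 CPM, with 15516 ± 2852 CPM on average, against 11108 ± 738 CPM in control CM (SD, n = 3 each here and below). HUPO NCM reached 10600 ± 2047 CPM, against 8316 ± 493 CPM in control NCM. These groups do not overlap within either monocyte type, and the HUPO CM libraries other than Bld_1606_HUPO_C were also above the highest control at 11790 CPM. In a bulk sample, fewer cells of a type and less RNA per cell cannot be told apart.

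In the ankle, HUPO FI1 averaged 15222 ± 878 CPM against 11297 ± 1049 CPM in control FI1, and HUPO FI3 averaged 15054 ± 1058 CPM against 11218 ± 1732 CPM in control FI3. Again no library of one arm reached those of the other. The FH subsets showed smaller gaps, with 14453 ± 774 CPM in HUPO FH1 against 13219 ± 734 CPM in control FH1, and 13463 ± 1449 CPM in HUPO FH2 against 11944 ± 640 CPM in control FH2. In both FH subsets the arms overlapped. HUPO FI2, which has no control group, lay at 12630 ± 731 CPM.

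Ordered by mean, the 5 highest groups were HUPO CM, FI1, FI3, FH1 and FH2, and control NCM was lowest. Neighbours in the order overlapped in their ranges with the exception of the last step, where HUPO NCM, from 9340 to 12962 CPM, lay above control NCM, from 7775 to 8740 CPM. Differences between neighbouring groups in this order were therefore mostly within the spread of the libraries. By complex, complex I contributed 5260 ± 1322 CPM in HUPO CM against 3456 ± 136 CPM in control CM, and 4484 ± 433 CPM in HUPO FI3 against 3076 ± 366 CPM in control FI3. Complex III varied least between the arms in blood, with 1509 ± 19.9 CPM in HUPO CM against 1462 ± 108 CPM in control CM and 1116 ± 248 CPM in HUPO NCM against 1098 ± 56.1 CPM in control NCM.

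**Figure D2:**
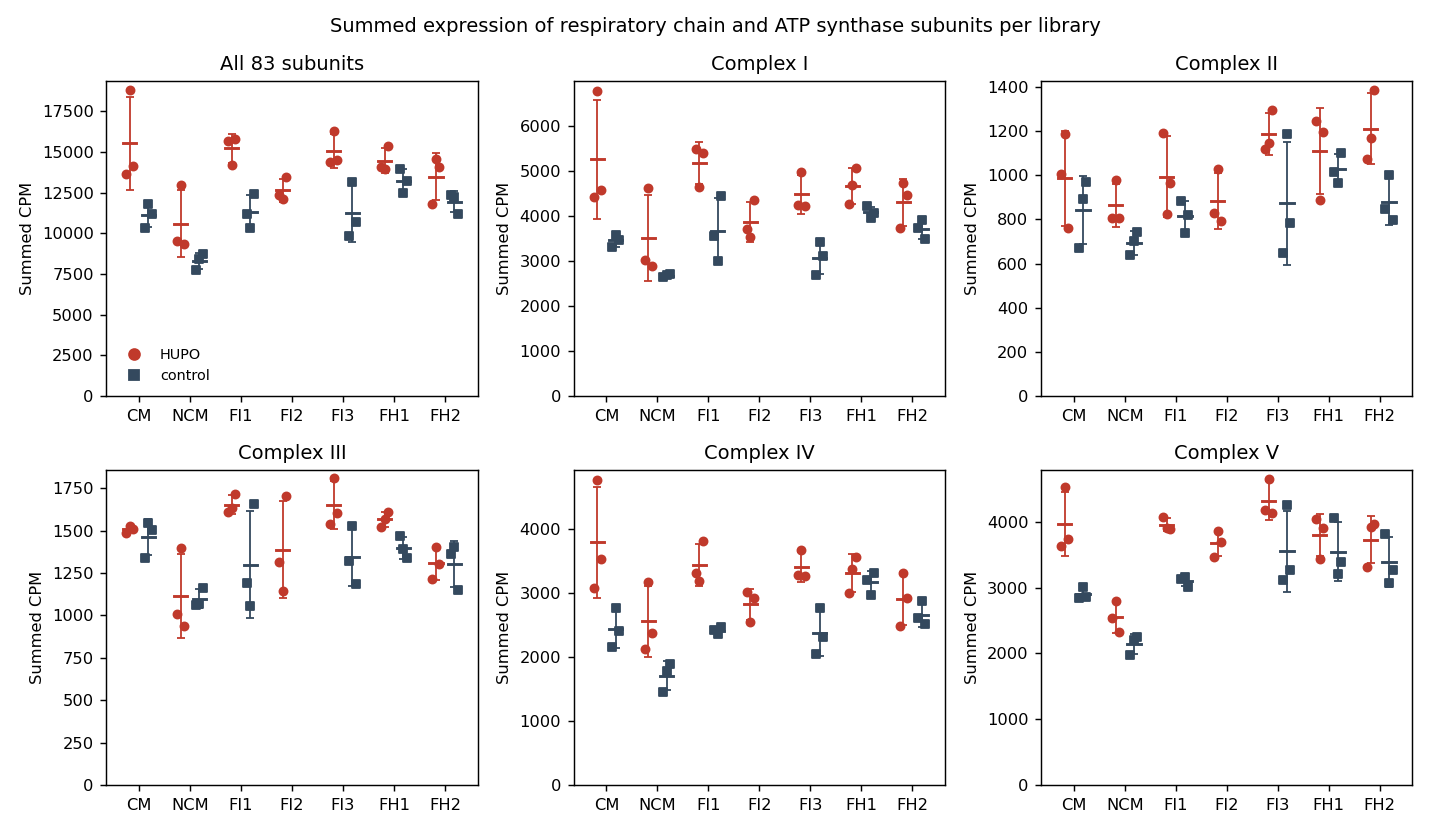
Summed CPM of the 83 subunits in every library, by population, with HUPO left of control, points for libraries and bars for the mean and SD (n = 3). HUPO libraries lie above all control libraries in CM, NCM, FI1 and FI3, and the arms overlap in FH1 and FH2.

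Each population was then compared between HUPO and control mice gene by gene, to ask which subunits carried the summed differences. Of the 83 subunits, 77 had enough counts to be tested. The exceptions were Atp5g2, Cox4i2, Cox7b2, Cox8b, Cox8c and Ndufs5. Single genes seldom passed the threshold, an edgeR adjusted p under 0.05 over 12450 genes, which also held for genes in general at 3 libraries a group. The median change over the subunits was above that over all genes in each of the 6 populations, however, and 28 of the 77 subunits had a log2 fold change above 0 in all 6, as did 3.9% of all genes, and 25 in 5 of the 6, as did 9.27%. Atp5b, Uqcrc1, Cox6a2 and Cox6b2 were above 0 in 1 population each.

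In CM, the median log2 fold change of the 77 subunits was 0.52, against 0.00 over all genes tested. No subunit was called in edgeR, where 0.562% of all genes were called either way. At an unadjusted p under 0.05, 25 subunits were higher and 0 were lower, where 4.57% and 6.57% of all genes were, and DESeq2 called 11. Shares of all genes called, here and below, are those of edgeR and cannot be set against DESeq2 counts. The HUPO libraries lay above all control libraries for 28 of the 77 subunits and below them for 0, where 5.04% and 6.62% of all genes lay above and below. Complex I had a median of 0.71, with 34 of 35 subunits above 0, where 40.4% of all genes were. The smallest p belonged to Cox7a2, the common form of a small complex IV subunit, at 281, 393 and 361 CPM in HUPO CM against 187, 199 and 137 CPM in control CM. Its arms did not overlap, and its log2 fold change was 0.98 (SE 0.25, edgeR adjusted p = 0.0663). Leaving out Bld_1606_HUPO_C and Bld_1606_HUPO_NC gave a median of 0.39. In these libraries erythroid markers summed to 631 to 2777 CPM in HUPO and 4431 to 13099 CPM in controls, and their part in the result was not tested.

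In NCM, the median over the subunits was 0.38 against 0.00 over all genes, and 1 subunit was called, where 0.731% of all genes were. Sdhc, a membrane anchor of complex II, stood at 104, 125 and 110 CPM in HUPO NCM against 34.9, 31.2 and 37.6 CPM in control NCM. Every HUPO library was far above every control library, and Sdhc rose by 1.71 on the log2 scale (SE 0.36, edgeR adjusted p = 0.0131). The other complex II genes did not pass. Sdhb gave 238, 394 and 305 CPM in HUPO NCM against 207, 159 and 138 CPM in control NCM (log2 fold change 0.89, edgeR adjusted p = 0.148), and Sdha pointed the other way (log2 fold change -0.66, adjusted p = 0.593). By unadjusted p under 0.05, 19 subunits were higher and 1 lower, where 5.9% and 3.57% of all genes were. HUPO libraries lay above all controls for 14 subunits (5.33% of all genes) and below them for 1 (4.98%). Without Bld_1606_HUPO_C and Bld_1606_HUPO_NC the median was 0.15. Leaving out Bld_1606_HUPO_NC alone (adjusted p = 0.051), Bld_1470_Control_NC or Bld_1506_Control_NC ended the Sdhc call, and with only HUPO and control NCM in the fit the adjusted p was 0.504. Erythroid markers summed to 1270 to 7007 CPM in HUPO and 8195 to 20979 CPM in control NCM, and their part in the result was not tested.

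In FI1, the median over the subunits was 0.39 and 67 of 77 were above 0, where 48.7% of all genes were. None was called in edgeR, where 0.225% of all genes were, and DESeq2 called 4. With no adjustment, 16 were higher and 1 was lower at p under 0.05, where 4.76% and 3.69% of all genes were. HUPO libraries were above all controls for 26 subunits (7.56% of all genes) and below them for 0 (3.96%). The smallest p was that of Atp5j, coupling factor 6 in the stalk of the ATP synthase, at 287, 275 and 338 CPM in HUPO FI1 against 167, 127 and 134 CPM in control FI1. Its arms were well apart, with a log2 fold change of 1.07 (SE 0.27, edgeR adjusted p = 0.0867). FI1 libraries hold neutrophil transcripts in both arms at like levels, given above, and what they add to subunit levels was not tested.

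In FI3 the median over the subunits was 0.55, or 0.42 with RLE scaling, and 1 subunit was called, where 1.07% of all genes were called. Cox7b, a small subunit at the membrane face of complex IV, stood at 243, 271 and 246 CPM in HUPO FI3 against 99.1, 107 and 154 CPM in control FI3. All 3 HUPO libraries exceeded the highest control, and Cox7b rose by 1.08 on the log2 scale (SE 0.25, edgeR adjusted p = 0.023). At an unadjusted p under 0.05, 22 subunits were higher and 0 lower, where 6.32% and 4.18% of all genes were. HUPO libraries were above all controls for 37 of the 77 subunits (10.2% of all genes) and below them for 0 (7.09%). Beside these values, neutrophil markers summed to 674 to 1862 CPM in HUPO and 54.2 to 129 CPM in control FI3. The fibroblast sum was 4911 to 7330 CPM in HUPO and 1166 to 1663 CPM in control FI3, and the dendritic cell sum was 56.2 to 249 CPM in HUPO and 1505.3 to 1986 CPM in controls. The part of these cells in the FI3 result was not tested. The Cox7b call was lost with RLE scaling (adjusted p = 0.1), with only the FI3 groups in the fit (adjusted p = 0.162) and in 5 of the 6 fits that leave out 1 library, with the highest adjusted p at 0.158 without Ank_1085_Control_Iic.

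In FH1 and FH2, the differences were smaller. The median over the subunits was 0.16 in FH1, against 0.00 over all genes, and 0.16 in FH2, against -0.11 over all genes. No subunit was called in either, where 0.843% and 0.651% of all genes were called in FH1 and in FH2. At an unadjusted p under 0.05, 1 subunit was higher and 0 lower in FH1, where 4.27% and 2.89% of all genes were, and DESeq2 called 0. In FH2, 2 were higher and 2 lower, where 3.04% and 4.67% of all genes were, and DESeq2 called 1. HUPO libraries lay above all controls for 15 subunits in FH1 (7.28% of all genes) and below them for 1 (8.34%). In FH2 they lay above for 6 (7.12%), a share near that of all genes, and below for 2 (11.3%). Neutrophil markers summed to 1864 to 10648 CPM in HUPO and 6.00 to 913 CPM in control FH1, and to 337 to 4827 CPM in HUPO and 51.9 to 1092 CPM in control FH2, and their part in the result was not tested.

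Whether the HUPO difference itself differed between populations was tested in the same fit. The HUPO effect in the FI subsets minus that in the FH subsets had a median of 0.37 over the subunits, with 9 above and 0 below at an unadjusted p under 0.05, where 4.35% and 2.78% of all genes were. None passed the adjusted threshold, and the smallest adjusted p was 0.318, for Ndufs7, where 0.257% of all genes passed. The effect in CM minus that in NCM had a median of 0.20 and a smallest adjusted p of 0.396, for Ndufv1 (0.265% of all genes), with 1 above and 1 below at the unadjusted p (2.96% and 5.83%). The effect in blood minus that in the ankle had a median of 0.16 and a smallest adjusted p of 0.111, for Uqcrc2 (1.46% of all genes), with 5 above and 2 below (3.92% and 5.79%). No subunit can thus be said to differ between these populations in its HUPO effect, and these 3 tests were added after the population results were seen.

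**Figure D3:**
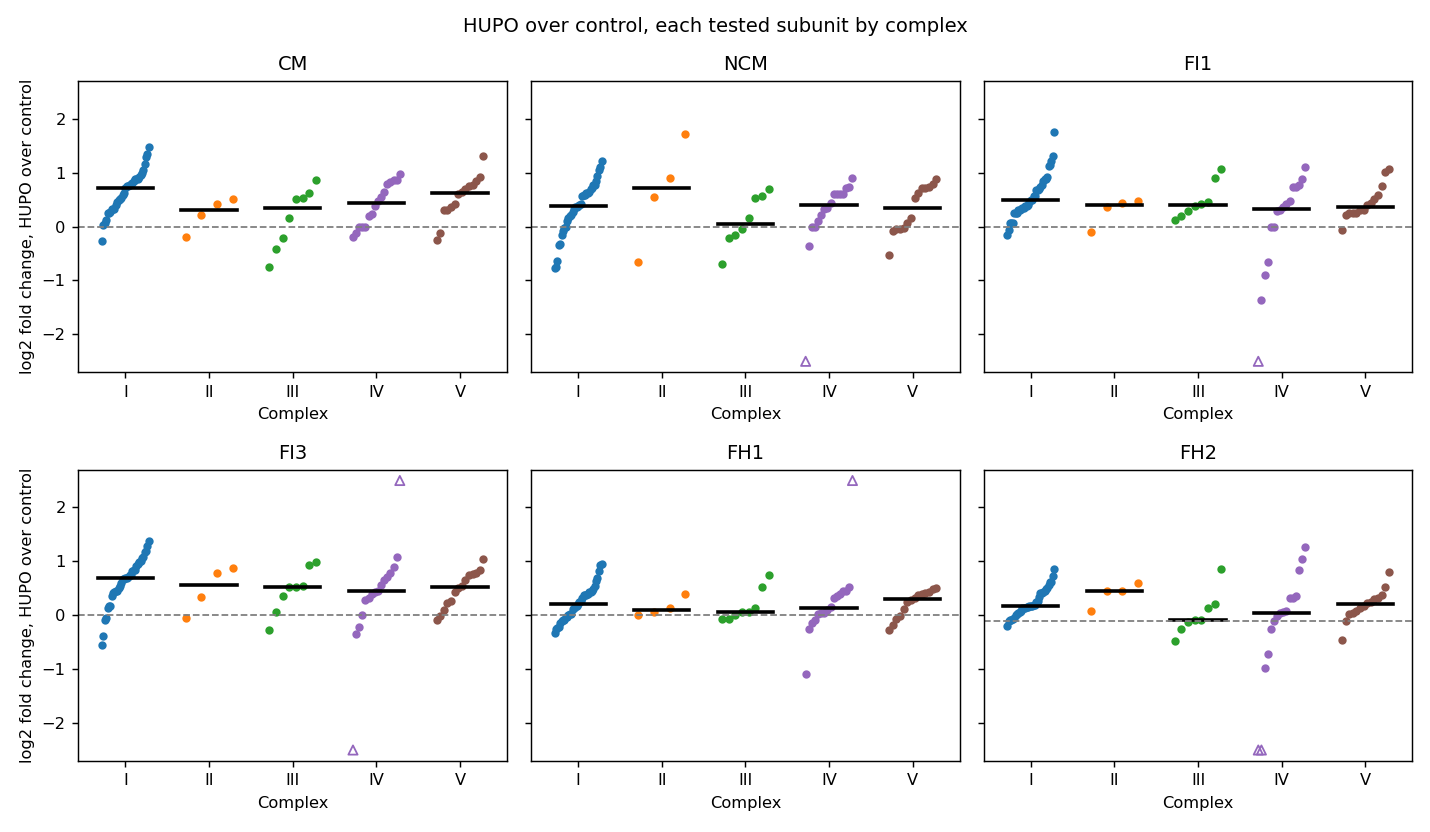
log2 fold change, HUPO over control, of each of the 77 tested subunits in 6 populations, by complex, with a thick line for the median of the complex and a dashed line for the median of all genes tested. Open triangles mark values beyond 2.5 in either direction, which belong to genes of complex IV. In CM, NCM, FI1 and FI3 the complex medians lie above the dashed line, and in FH1 they run from 0.06 in complex III to 0.30 in complex V.

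Over FI1, FI3, FH1 and FH2 together, with 12 HUPO and 12 control libraries, 7 subunits rose and 0 fell, where 4.18% of all genes were called either way and 2.59% as higher. The median over the subunits was 0.35 against 0.00 over all genes, and 69 of 77 were above 0, where 50.2% of all genes were. The 7 came from 4 complexes, Ndufv2 and Ndufs4 from complex I, Sdhb from complex II, Cox5a and Cox7b from complex IV, and Atp5j and Atp5f1 from complex V. The arms overlapped for each of the 7.

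Cox5a, a subunit on the matrix side of complex IV, had the smallest p. It ran between 295 and 511 CPM with a median of 377 CPM in HUPO ankle libraries, and between 96.3 and 343 CPM with a median of 221 CPM in control ankle libraries. Of the controls, an FI3 library at 343 CPM and an FH1 library at 315 CPM lay within the HUPO range. Cox5a rose by 0.83 (log2; SE 0.16, edgeR adjusted p = 0.000873), and it was above 0 in all 6 populations, by 0.39 to 1.10. Cox7b gave 159, 213 and 271 CPM as lowest, median and highest in HUPO libraries, against 99.1, 140 and 179 CPM in controls. Its log2 fold change was 0.65 (SE 0.13, edgeR adjusted p = 0.00107).

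In the ATP synthase, the stalk gene Atp5j gave 158, 246 and 338 CPM as lowest, median and highest in HUPO ankle libraries, against 114, 167 and 207 CPM in control libraries. It rose by 0.59 on the log2 scale (SE 0.13, edgeR adjusted p = 0.00561). Atp5f1, the b subunit that links the membrane part to the catalytic head, gave 155, 233 and 295 CPM in HUPO and 94.5, 147 and 235 CPM in control libraries. Its log2 fold change was 0.58 (SE 0.15, edgeR adjusted p = 0.0229), with control FI1, at 229, 235 and 215 CPM, the highest of the control subsets.

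In complex I, Ndufv2, an iron-sulphur subunit of the NADH-binding module, gave 149, 201 and 251 CPM as lowest, median and highest in HUPO ankle libraries, against 66.9, 127 and 220 CPM in controls (log2 fold change 0.67, SE 0.16, edgeR adjusted p = 0.0117). Its 2 highest controls were FH2 libraries, and in FH2 its log2 fold change was -0.07. Ndufs4, an accessory subunit whose loss in humans causes Leigh syndrome, gave 63.4, 105 and 189 CPM in HUPO against 13.9, 56.4 and 116 CPM in control libraries, and its log2 fold change of 0.96 was the largest of the 7 (SE 0.26, edgeR adjusted p = 0.0275). The HUPO FI1 libraries, at 188, 187 and 189 CPM, were the highest. Sdhb, the iron-sulphur subunit of complex II, gave 207, 419 and 486 CPM in HUPO against 148, 304 and 388 CPM in control libraries (log2 fold change 0.46, SE 0.13, edgeR adjusted p = 0.0434).

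The calls of Cox5a, Cox7b, Atp5j and Ndufv2 held without any 1 of the 24 libraries, while that of Sdhb was lost in 20 of the 24 fits that leave out 1 library, that of Ndufs4 in 11 (adjusted p up to 0.0736) and that of Atp5f1 in 3 (up to 0.0583). RLE scaling also ended the calls of Ndufs4 (adjusted p = 0.0513), Atp5f1 (0.0644) and Sdhb (0.125). The count was 4 without the control FH1 library Ank_1194_Control_Ia or the control FH2 library Ank_1392_Control_Ib, and 11 without the control FI1 library Ank_1392_Control_Iia. All genes called in the fits that leave out 1 library ran from 406 to 539. Without the FI1 libraries 3 of the 7 remained past the threshold, and Atp5j (adjusted p = 0.161), Ndufv2 (0.167), Ndufs4 (0.132) and Sdhb (0.116) did not pass.

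**Figure D4:**
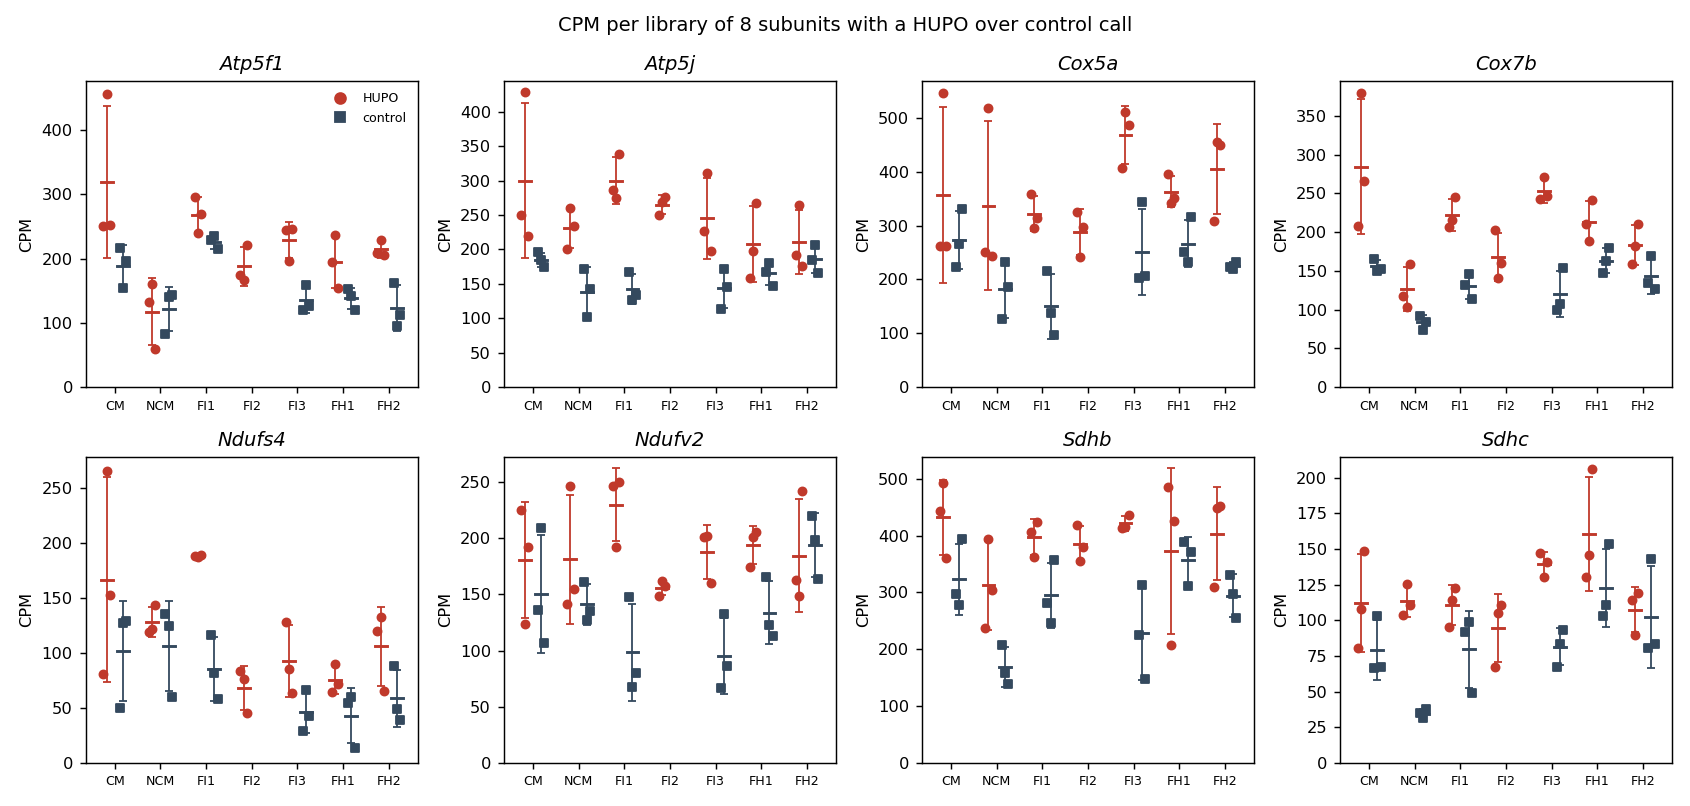
CPM in every library of the 8 subunits called as higher in HUPO in a population or over the ankle subsets, by population, with HUPO left of control, and with bars for the mean and SD (n = 3). Sdhc is apart in NCM, Cox7b in FI3, and for Cox5a the HUPO ankle libraries lie mostly above the control ones.

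Other representative subunits did not pass over the ankle. Atp5a1, the alpha subunit of the catalytic head, was at 590, 697 and 955 CPM as lowest, median and highest in HUPO ankle libraries, against 364, 590 and 712 CPM in controls, with a log2 fold change of 0.34 (edgeR adjusted p = 0.0633). Its partner Atp5b gave 659, 1019 and 1603 CPM in HUPO against 850, 1125 and 1785 CPM in control libraries, with a log2 fold change of -0.13 and an adjusted p of 0.743. The alpha and beta subunits, which alternate in the head in equal numbers, thus lay on opposite sides of 0, each within the overlap of the arms. Cox4i1 had 516, 691 and 920 CPM in HUPO against 453, 580 and 863 CPM in control libraries (log2 fold change 0.17, adjusted p = 0.56).

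Uqcrc1 of complex III was at 290, 400 and 501 CPM in HUPO against 285, 393 and 594 CPM in control ankle libraries, a log2 fold change of -0.04 (edgeR adjusted p = 1). Uqcrfs1, the Rieske iron-sulphur protein of complex III, had a log2 fold change of 0.40 (adjusted p = 0.21). In complex I the core subunit Ndufv1, which binds NADH, had 0.41 (adjusted p = 0.51), and Ndufs1, the largest subunit of the module, had 0.25 (adjusted p = 1). Ndufs1 was scattered within groups, with 60.2, 126 and 0 CPM in control FI3. Sdha gave a log2 fold change of 0.17 (adjusted p = 0.95).

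Most subunit transcripts are short, and short genes in general lay on the same side of 0. Among genes with a mean of 32 CPM or more and a transcript under 1000 nucleotides, 42 were subunits and 334 were other genes. In CM their median log2 fold changes, HUPO over control, were 0.63 for subunits and 0.33 for other genes, in NCM 0.58 and 0.27, in FI1 0.41 and 0.22, and in FI3 0.63 and 0.39. In these 4 populations the subunits lay above other short genes, while short genes as a whole lay above 0. From 1000 to 2000 nucleotides the medians were 0.39 and 0.08 in CM and 0.22 and 0.03 in NCM. In FI1 they were 0.40 and 0.12, and in FI3 0.48 and 0.15. Over 2000 nucleotides they were 0.33 and -0.13 in CM, 0.48 and 0.03 in FI1, and 0.35 and 0.03 in FI3. In NCM both were -0.08 in that class, so the subunits did not stand above other long genes there. In FH1 the order of the short classes was the other way, with 0.05 for subunits and 0.25 for other genes, and likewise in FH2 with 0.07 and 0.18. From 1000 to 2000 nucleotides the subunits lay above other genes in these too, with 0.32 and 0.09 in FH1 and 0.26 and 0.14 in FH2, and over 2000 nucleotides with 0.41 and -0.07 in FH1 and 0.24 and -0.09 in FH2. Among other genes over 2000 nucleotides the medians ran from -0.13 in CM to 0.03 in FI3. The part of transcript length in the HUPO result was not tested.

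The cytosolic ribosomal proteins are another set of short, abundant transcripts, and this list was added after results were seen. Of the 77 tested, 0 were called by edgeR in any of the 6 populations, and at an unadjusted p under 0.05 at most 7, in NCM, were higher and at most 1 was lower. Their median log2 fold change was 0.19 in CM, 0.37 in NCM, -0.01 in FI1, 0.18 in FI3, 0.33 in FH1 and 0.00 in FH2. The subunits' medians were thus above those of ribosomal proteins in CM, FI1, FI3 and FH2, near them in NCM and below them in FH1.

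**Figure D5:**
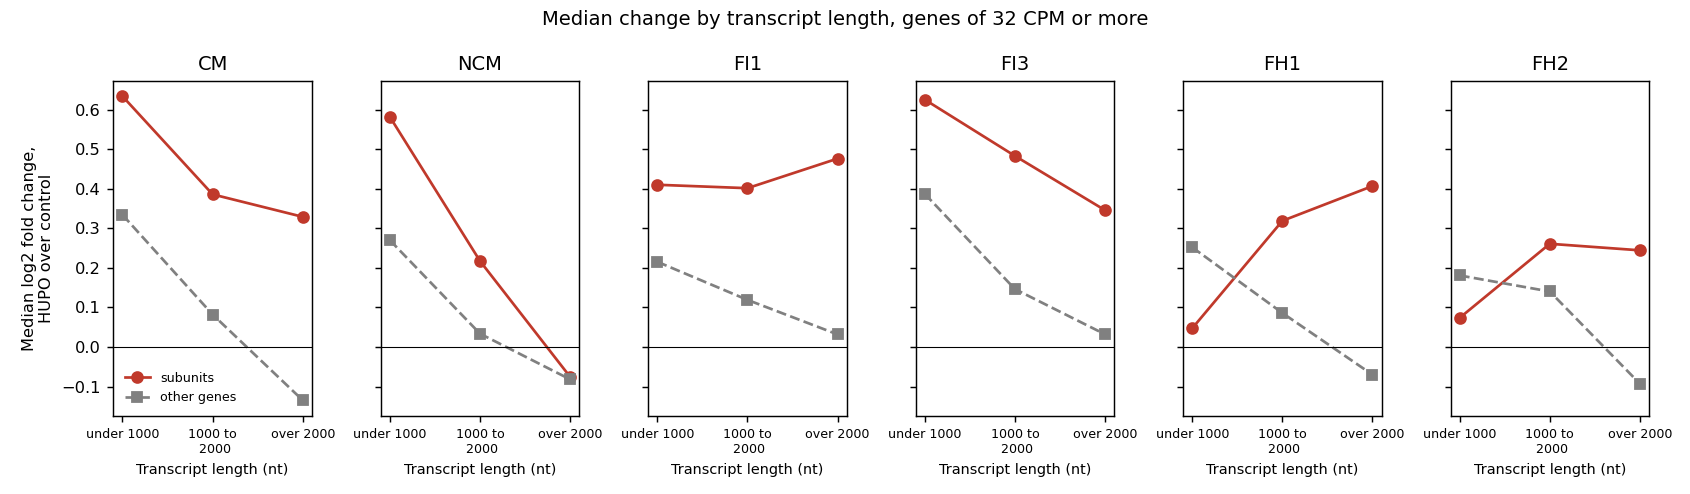
Median log2 fold change, HUPO over control, of subunits (circles) and of other genes (squares) with a mean of 32 CPM or more, by transcript length in nucleotides, in 6 populations. Other genes under 1000 nucleotides lie above 0 in all 6, subunits of that length lie above them in CM, NCM, FI1 and FI3, and below them in FH1 and FH2. The class over 2000 nucleotides holds 5 subunits.

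The promoters of genes that rose together over the ankle are shown because nuclear respiratory genes are known for sites of the factors NRF1, GABP (an ETS protein) and YY1 close to their starts. RefSeq promoter windows on GRCm38.p6, 250 bases before to 50 after the start, were matched for 68 of the 83 subunits (81.9%). The palindromic consensus of NRF1 was found on either strand in 17 of these (25%), against 5.14% of the 26957 other genes. CCGGAAG for ETS was found in 16 (23.5%), against 9.89%, and AAGATGGC for YY1 in 10 (14.7%), against 3.16%. GGGCGGGG, the letters bound by SP factors, were in 12 (17.6%), against 19.6% of other genes. Any of the first 3 motifs was found in 37 subunits (54.4%), against 16.3% of other genes, and no ETS match overlapped a YY1 match. A match of letters is a description of the sequence and not a binding site.

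The following stretches run 5′ to 3′ from 100 bases before to 30 after the RefSeq start, in lower case with motif letters in capitals. They were picked after the matches were seen, to show called genes with and without a match, with Atp5g3, called between ankle and blood, for NRF1.
Atp5f1, chr3:105959234-105959363, minus strand, SP then YY1 in reverse: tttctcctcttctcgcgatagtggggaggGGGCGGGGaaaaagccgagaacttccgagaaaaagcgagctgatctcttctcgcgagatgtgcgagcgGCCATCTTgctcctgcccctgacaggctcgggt
Atp5j, second window, chr16:84834947-84835076, minus strand, YY1 then ETS: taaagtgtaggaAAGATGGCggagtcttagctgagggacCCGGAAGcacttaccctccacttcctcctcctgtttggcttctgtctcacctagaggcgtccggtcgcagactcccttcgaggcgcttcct
Sdhb, chr4:140961171-140961300, plus strand, ETS: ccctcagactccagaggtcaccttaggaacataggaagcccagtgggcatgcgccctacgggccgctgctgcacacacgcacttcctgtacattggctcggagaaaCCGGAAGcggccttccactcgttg
Atp5g3, chr2:73911297-73911426, minus strand, NRF1: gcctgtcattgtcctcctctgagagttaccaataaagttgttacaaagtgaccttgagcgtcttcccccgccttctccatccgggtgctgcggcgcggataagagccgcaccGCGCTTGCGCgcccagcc
Cox5a, chr9:57521132-57521261, plus strand, no match: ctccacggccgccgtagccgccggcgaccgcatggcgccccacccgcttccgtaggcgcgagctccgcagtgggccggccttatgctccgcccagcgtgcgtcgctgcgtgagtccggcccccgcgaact
Cox7b, chrX:106015600-106015729, plus strand, no match: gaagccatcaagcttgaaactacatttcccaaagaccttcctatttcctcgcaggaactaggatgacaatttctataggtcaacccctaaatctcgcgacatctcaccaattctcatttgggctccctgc
The YY1 letters of Atp5f1 lie across its start, at -3 to 5, and those of Atp5j at -88 to -81, ahead of its ETS letters at -61 to -55. The ETS letters of Sdhb are at 7 to 13 and the NRF1 letters of Atp5g3 at 13 to 22, both after the start. Cox5a and Cox7b, the genes with the smallest p over the ankle, held none of the 4 motifs in these windows.

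Genes that work with the chain were taken from lists of its pathway. Of 38 assembly factors tested, 2 rose and 0 fell over the HUPO ankle subsets, where 2.59% of all genes were called as higher and 4.18% either way, so these counts are near that share. Cox17, the copper chaperone of complex IV, averaged 112 ± 29.2 CPM in HUPO and 69.4 ± 32.1 CPM in control ankle libraries (SD, n = 12 each), a log2 fold change of 0.70 (SE 0.20, edgeR adjusted p = 0.0399). The other, Ndufaf4, a complex I assembly factor, was low, with 30.7 ± 20.8 CPM in HUPO and 11.1 ± 15.7 CPM in control libraries, and was at 0 in all 3 control FI1 libraries (adjusted p = 0.0205).

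Of 17 genes of the tricarboxylic acid cycle, which feeds the chain, 1 rose, again beside 2.59% of all genes. This was Mdh2, malate dehydrogenase, at 278 ± 85.6 CPM in HUPO and 190 ± 40.9 CPM in control ankle libraries (log2 fold change 0.53, edgeR adjusted p = 0.0338). Of 16 carriers and import genes, 1 rose, beside the same share. Ucp2, a carrier of the uncoupling protein family that leukocytes use, averaged 2482 ± 652 CPM in HUPO and 1834 ± 263 CPM in control ankle libraries, with a log2 fold change of 0.40 (adjusted p = 0.000321). It also rose in FI3, by 0.67, and in FH2, by 0.63 on the log2 scale. None of the 15 electron carriers and coenzyme Q genes and none of the 12 transcriptional regulators tested were called, also at an unadjusted p under 0.05, and the medians of these lists were 0.30 and -0.38.

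Ankle subsets were compared with blood monocytes within each arm, which asks how the chain differs between circulating cells and joint tissue. In HUPO mice 5 subunits rose in the ankle and 1 fell, where 11.2% of all genes were called either way, and the median over the subunits was 0.17 against 0.20 over all genes. In control mice 12 rose and 1 fell, where 12.7% of all genes were called, and the median was 0.31 against 0.11 over all genes. The 6 of 77 called in HUPO mice are a smaller share than that of all genes and the 13 of 77 in control mice a larger one. Both counts include Cox7a1 and moved with single libraries. Without 1 library they ran from 4 to 7 in HUPO and from 8 to 15 in control mice. All genes called in those fits ran from 1108 to 1273 in HUPO and from 1257 to 1497 in control mice. Neither share is therefore read as a result about the subunits. Markers of other cells moved with this comparison. Erythroid markers summed to 3.82 to 224 CPM in HUPO ankle and 631 to 7007 CPM in HUPO blood libraries, and to 0 to 892 CPM in control ankle and 4431 to 20979 CPM in control blood. Fibroblast markers summed to 1442 to 7330 CPM in HUPO ankle and 79.2 to 791 CPM in HUPO blood, and to 1166 to 12438 CPM in control ankle and 31.2 to 1027 CPM in control blood. Neutrophil markers summed to 337 to 27061 CPM in HUPO ankle and 144 to 4383 CPM in HUPO blood. In control mice they summed to 6.00 to 24091 CPM in the ankle and 172 to 425 CPM in blood. Their ranges overlapped, and FI1 held the highest values in both arms. Their part in the result was not tested. HUPO ankle and HUPO blood libraries share no number in their titles, and control ankle and control blood libraries share only 1 (suffixes set aside). If these numbers mark animals, the comparison is also largely between different mice. Tissue, preparation and title number therefore cannot be told apart. Without the control CM library Bld_1508_Control_C the control count was 8 in all, and without Bld_1606_HUPO_C and Bld_1606_HUPO_NC the HUPO count was 9 and the median 0.39, against 0.25 over all genes.

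Atp5b rose in the ankle in both arms. It gave 659, 1019 and 1603 CPM as lowest, median and highest in HUPO ankle libraries against 439, 690 and 886 CPM in HUPO blood, a log2 fold change of 0.62 (SE 0.13, edgeR adjusted p = 0.0011). In control mice it gave 850, 1125 and 1785 CPM in the ankle against 514, 645 and 907 CPM in blood, with a log2 fold change of 0.78 (SE 0.13, adjusted p = 6.25e-05). The ranges met at their ends, and in each arm 10 of the 12 ankle libraries were above all blood libraries. By group mean, FI3 was the highest and NCM the lowest in control mice.

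Atp5g3, the main c-ring gene by level, behaved alike. HUPO ankle libraries gave 294, 376 and 456 CPM against 104, 270 and 365 CPM in HUPO blood (log2 fold change 0.64, edgeR adjusted p = 0.00824), and control ankle libraries gave 166, 290 and 396 CPM against 87.5, 145 and 246 CPM in control blood (log2 fold change 0.92, adjusted p = 0.00015). Atp5a1 also rose in both arms, by 0.45 in HUPO (adjusted p = 0.0223) and by 0.47 in controls (adjusted p = 0.0166). Its HUPO call was lost without Bld_1505_HUPO_NC (adjusted p = 0.0816) or Bld_1739_HUPO_C (0.0713) and with RLE scaling (0.0631), and its control call without Bld_1470_Control_NC (0.0834). Cox7a1 is counted among the calls of each arm, but at 0 in all blood libraries it passed the filter on low counts only through the ankle, so its call carries no information of its own. It was lost without Ank_1170_HUPO_Iia in HUPO and without Ank_1194_Control_Iia in control mice.

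Further calls were made in a single arm. In HUPO mice Uqcrc2, a core protein of complex III, rose by 1.07 (SE 0.30, edgeR adjusted p = 0.0163), with 112, 155 and 243 CPM in the ankle against 28.6, 67.9 and 179 CPM in blood. That call was lost without Bld_1606_HUPO_C (adjusted p = 0.0599), Bld_1739_HUPO_C (0.0663) or Bld_1739_HUPO_NC (0.0667). In control mice Cox4i1 rose by 0.58 (adjusted p = 0.00204), with 453, 580 and 863 CPM in the ankle against 307, 377 and 686 CPM in blood. Sdhc rose by 0.86 (adjusted p = 0.00832) and Cox6c, a small complex IV subunit, by 0.67 (adjusted p = 0.00855). Cox7a2, Cox8a, Ndufa2, Ndufb11 and Atp5o completed the 12. Of the 18 fits that leave out 1 library, the call was lost in 3 for Cox7a2, 2 for Cox8a, 6 for Ndufa2, 4 for Ndufb11 and 11 for Atp5o. For none of the subunits was the difference between the arms past the adjusted threshold, as given above.

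Ndufa3, a small accessory subunit of complex I, fell in the ankle in both arms. HUPO ankle libraries gave 56.3, 103 and 229 CPM against 123, 241 and 439 CPM in HUPO blood (log2 fold change -1.12, SE 0.25, edgeR adjusted p = 0.0022), and control ankle libraries gave 41.1, 61.7 and 154 CPM against 91.2, 115 and 140 CPM in control blood (log2 fold change -0.79, SE 0.25, adjusted p = 0.034). Within the ankle the FI1 libraries held its highest values in both arms, and the other control ankle subsets, between 41.1 and 76.8 CPM, lay below all control blood libraries. With Bld_1606_HUPO_C and Bld_1606_HUPO_NC left out, the HUPO value was -0.78 (adjusted p = 0.0834). The control call was lost in 13 of the 18 fits that leave out 1 library, with adjusted p up to 0.095.

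Of the 16 carriers and import genes, 4 rose and 0 fell in the HUPO ankle, beside 11.2% of all genes called, and 5 rose and 1 fell in the control ankle, beside 12.7%. The mitochondrial chaperone Hspa9, the phosphate carrier Slc25a3, the adenine nucleotide carrier Slc25a4 and the outer membrane channel Vdac1 rose in the ankle in both arms. In HUPO mice their log2 fold changes were 1.43, 0.83, 1.57 and 1.46, and in control mice they were 1.80, 0.75, 2.12 and 1.12 (edgeR adjusted p from 1.63e-05 for Hspa9 in controls to 0.0418 for Slc25a4 in HUPO mice). Atpif1, the inhibitor of the ATP synthase, rose in controls by 1.48 (adjusted p = 1.89e-05). Ucp2 fell in controls, by 0.54 on the log2 scale (adjusted p = 2.30e-05).

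Non-classical monocytes had lower subunit levels than classical ones in both arms. In HUPO mice the summed level was 10600 ± 2047 CPM in NCM and 15516 ± 2852 CPM in CM, and in control mice 8316 ± 493 CPM in NCM and 11108 ± 738 CPM in CM, with no overlap in either arm. Over the 77 subunits the median log2 fold change, NCM over CM, was -0.59 in HUPO and -0.44 in control mice, against 0.00 over all genes in both, and 6 and 8 subunits lay above 0, where 46.4% and 43.3% of all genes did. The NCM libraries were below all CM libraries for 21 subunits in HUPO mice (5.36% of all genes) and for 21 in controls (7% of all genes).

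Few single genes passed. In HUPO mice 2 subunits fell in NCM, where 1.21% of all genes were called, and both are described above for the ankle. Atp5f1 had 133, 160 and 58.8 CPM in HUPO NCM against 250, 457 and 252 CPM in HUPO CM, a log2 fold change of -1.45 (SE 0.31, edgeR adjusted p = 0.00952). Cox7b had 117, 104 and 159 CPM in HUPO NCM against 208, 380 and 266 CPM in HUPO CM, a log2 fold change of -1.17 (SE 0.25, adjusted p = 0.011). Bld_1606_HUPO_C gave the highest CM value of both genes, and without it the log2 fold changes were -1.10 (adjusted p = 0.122) for Atp5f1 and -0.91 (adjusted p = 0.127) for Cox7b. The Atp5f1 call was also lost without Bld_1739_HUPO_NC (adjusted p = 0.09), and the Cox7b call without Bld_1606_HUPO_NC (0.0779). The HUPO median over the subunits was -0.37 without Bld_1606_HUPO_C.

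In control mice Atp5g3 fell, where 0.884% of all genes were called, with 87.5, 113 and 111 CPM in NCM against 213, 246 and 178 CPM in CM. The types did not overlap, the log2 fold change was -1.03 (SE 0.26, edgeR adjusted p = 0.0482), and the call was lost without any 1 of the 6 libraries. Short genes lay below 0 here too. Other genes under 1000 nucleotides and at 32 CPM or more had medians of -0.38 in HUPO and -0.36 in control mice, against -0.57 and -0.46 for subunits of that length. Subunits over 2000 nucleotides, 5 in number, had medians of -0.63 in HUPO and -0.35 in control mice, where other genes of that length had 0.08 and 0.01.

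Within the ankle, FH and FI subsets (6 libraries each, from FH1 with FH2 and FI1 with FI3) were compared in each arm. In HUPO mice no subunit was called, where 1.98% of all genes were, and DESeq2 called 1. At an unadjusted p under 0.05, 1 was higher and 4 were lower, where 6.46% and 5.86% of all genes were. The median was -0.14 against 0.00 over all genes.

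In control mice Ndufs7, an iron-sulphur core subunit of complex I next to the quinone site, rose in FH, where 3.94% of all genes were called. Ndufs7 gave 91.5, 157 and 178 CPM as lowest, median and highest in control FH against 38.4, 56.6 and 93.1 CPM in control FI libraries. The ranges met only at 91.5 to 93.1 CPM, and its log2 fold change was 1.24 (SE 0.26, edgeR adjusted p = 0.00231). The median over the subunits was 0.28, against 0.17 over all genes. Without the FI1 libraries the Ndufs7 difference was 1.01 (adjusted p = 0.15). With the shared title numbers as an additive block it was 1.26 (adjusted p = 0.162), so the call was lost in both fits. In HUPO mice Ndufs7 gave 117, 179 and 148 CPM in FH1, 121, 144 and 144 CPM in FH2, 136, 113 and 124 CPM in FI1 and 94.7, 155 and 122 CPM in FI3. Its HUPO subsets overlapped, and all of these libraries lay above the 6 control FI libraries.

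Between single ankle subsets no subunit was called by edgeR. For FH2 over FH1 the medians were -0.18 in HUPO and -0.17 in control mice, where 0.0643% and 0.394% of all genes were called, and DESeq2 called 1 and 0 subunits. At an unadjusted p under 0.05, 0 were higher and 1 lower in HUPO mice, where 2.07% and 2.09% of all genes were, and 1 was higher and 0 lower in control mice, where 4.05% and 1.31% were. For FI3 over FI1 the medians were 0.00 in HUPO and -0.08 in control mice, where 1.26% and 1.94% of all genes were called, and DESeq2 called 2 and 4 subunits. At the unadjusted p, 1 was higher and 2 lower in HUPO mice, where 5.56% and 4.61% of all genes were, and 3 were higher and 8 lower in control mice, where 7% and 7.1% were.

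HUPO FI2 had lower subunit levels than both other FI subsets by the median. FI2 over FI1 gave -0.22, where 0.9% of all genes were called and DESeq2 called 4 subunits. At the unadjusted p, 0 were higher and 9 lower, where 4.81% and 6.02% of all genes were. FI2 over FI3 gave -0.27, where 0.00803% of all genes were called and DESeq2 called 0 subunits, and at the unadjusted p 0 were higher and 3 lower, where 2.23% and 4.12% of all genes were. Neutrophil markers summed to 3299 to 6614 CPM in HUPO FI2, between the levels of HUPO FI3 and HUPO FI1.

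Asked across all 13 groups at once, 24 of the 77 subunits differed among groups, where 15.9% of all genes did. They were 6 of 35 in complex I, 2 of 4 in complex II, 1 of 8 in complex III, 10 of 16 in complex IV and 5 of 14 in complex V. The complex IV count includes Cox6a2 and Cox7a1, listed at 0 in some groups. Both passed the filter on low counts only through the groups where they are high, so their calls carry no information of their own. The smallest p-values were those of Atp5b, Atp5g3, Cox7b and Ndufa3. Ndufa3 averaged 315 CPM in HUPO CM, its highest group, and 45.2 CPM in control FI3, its lowest. HUPO CM was the highest group for 27 of the 77 subunits and control NCM the lowest for 36. These group comparisons share libraries with each other, as HUPO CM enters the comparison with control CM, with HUPO NCM and with the ankle, so they are not separate evidence.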

How the data were processed

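Reads were aligned and counted by the authors, who deposited whole-number counts per gene symbol for each library. The submitters' processing notes name FastQC, STAR, HTSeq, Cufflinks and mm10 without versions. Libraries were made with SMART-Seq v4 and Nextera XT, per the labels' protocols, and read as single reads of 75 bp, with no molecular identifiers or strand. Per the series' design text, some samples were removed for low quality, for low correlation (3 control samples) or for high neutrophil genes (2 HUPO samples of FH subsets), which lowers the spread among those kept. The members, gene lists and tests were chosen with earlier results of these data known. The ribosomal list, the 3 tests of a difference in HUPO effect, the printed promoters and the fit without Bld_1606_HUPO_C and Bld_1606_HUPO_NC were added after results were seen.

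The counts were tested with edgeR 4.0.16 in R 4.3.3, in quasi-likelihood fits of all 13 groups with TMM scaling, filterByExpr and 26 residual degrees of freedom. A gene was called at a Benjamini-Hochberg adjusted p under 0.05 over 12450 genes, two-sided, and each SE is the fold change over the root of the F statistic. Named genes were 10 representative subunits, the isoform sets, up to 6 calls each way per comparison, and the highest and lowest of each complex. Lengths and shared windows came from GENCODE M21, and promoters from RefSeq. The scripts were tested on simulated data, and a missing call does not show an absent change. Exact permutation of 3 against 3 libraries cannot go below 0.1 and was not used. Alternatives used DESeq2 1.42.0 and limma 3.58.1 (voom).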

Additional observations from a re-analysis of the deposited data

How the results depend on the processing

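Counts of called subunits depended on the tool and the scaling, and no result reversed its direction under any alternative run. The shares of all genes that DESeq2 or voom called are not given here. Their counts therefore do not show whether subunits were called more often than other genes. DESeq2 called 11 in CM, 8 in NCM, 4 each in FI1 and FI3, 1 in FH2 and 14 over the ankle. It called 10 for ankle over blood in HUPO and 25 in control mice, 12 for NCM over CM in HUPO and 5 in control mice, 1 for FH over FI in HUPO and 6 in control mice, 2 for FI3 over FI1 in HUPO and 4 in control mice, 1 for FH2 over FH1 and 4 for FI2 over FI1 in HUPO mice, and 37 among the 13 groups, where edgeR called 24. RLE scaling gave 0 in FI3, 4 over the ankle and 0 for control NCM over CM. It also moved summed CPM, to 1468 for complex III in HUPO CM, 1550.4 and 3719 for complexes III and V and 14287 in all in HUPO FI1, 2845 and 1166 for complexes I and III and 8821 in all in control NCM, and 2501 and 3223 for complexes IV and V in control FI1. With no filter on low counts, control NCM over CM had 0 calls. Fitting only the groups compared gave 0 in NCM, 0 in FI3, 11 over the ankle, 0 for NCM over CM in each arm and 1 for HUPO FH over FI. Without the FI1 libraries the ankle count was 3, and without Bld_1606_HUPO_C and Bld_1606_HUPO_NC HUPO NCM over CM had 0.

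Same-numbered deviations correlated between -0.022 and 0.046, and the main fit used no pairing. With the wide spread between libraries of a group, such low values cannot show whether the title numbers mark shared animals. With the replicate block as a random effect in voom the counts were 12 in CM, 3 in FI3, 1 in FH2, 14 over the ankle, 24 for ankle over blood in control mice, 9 and 7 for NCM over CM in HUPO and control mice, 1 and 4 for FH over FI in HUPO and control mice, 1 for control FH2 over FH1, 2 and 5 for HUPO FI3 and FI2 over FI1, and 55 among the 13 groups. As an additive block it gave 0 for NCM over CM in each arm and 0 for control FH over FI (Ndufs7 1.26, adjusted p = 0.162), and for control FH2 over FH1 and FI3 over FI1 it was not run, since they share 1 number.

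Leaving out 1 library gave 0 to 1 calls in CM, 0 to 3 in NCM, 0 to 2 in FI1 and in FI3, 4 to 11 over the ankle, 4 to 7 and 8 to 15 for ankle over blood in HUPO and control mice, 0 to 4 and 0 to 0 for NCM over CM in HUPO and control mice, 1 to 3 for control FH over FI, and 19 to 25 among the 13 groups, with 19 without Bld_1606_HUPO_C and without 3 other libraries. All genes called in the same fits ran from 42 to 116 in CM and from 59 to 183 in NCM. They ran from 4 to 90 in FI1, 65 to 138 in FI3 and 406 to 539 over the ankle. For ankle over blood they ran from 1108 to 1273 in HUPO and 1257 to 1497 in control mice. For NCM over CM they ran from 95 to 191 and 72 to 142. For control FH over FI they ran from 349 to 472, and among the 13 groups from 1697 to 1894. The cause of these shifts was not tested. The floor of 3 counts covers counting error only.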

Other observations

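Between ankle and blood, further genes of the pathway lists passed the threshold, which 11.2% of all genes did in HUPO mice and 12.7% in control mice. In HUPO mice 2 of 38 assembly factors fell in the ankle and 0 rose. These were Surf1, which serves complex IV assembly, at an average of 29.3 CPM in the ankle and 88.4 CPM in blood (log2 fold change -1.67, edgeR adjusted p = 0.0141), and Coa5, listed under its older symbol 6330578E17Rik, at 105 and 259 CPM (log2 fold change -1.34, adjusted p = 0.00132). Coa5 also fell in control mice, at 93.8 CPM in the ankle and 179 CPM in blood (log2 fold change -0.93, adjusted p = 0.0281), as did Ndufaf4, at 11.1 and 34.3 CPM (log2 fold change -3.80, adjusted p = 0.00954), while Cox10 rose, at 15.4 CPM in the control ankle and 2.61 CPM in control blood (adjusted p = 0.0143). Ndufaf4 was at 0 in the control FI1 libraries, and its fold change is larger than these means give, so its size cannot be relied on.

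Of 17 genes of the tricarboxylic acid cycle, Pdha1, the alpha subunit of pyruvate dehydrogenase, fell in the HUPO ankle, at 139 CPM against 258 CPM in HUPO blood (log2 fold change -0.93, edgeR adjusted p = 0.00225). Idh2, the NADP-dependent isocitrate dehydrogenase, rose in the control ankle, at 147 CPM against 33.2 CPM in control blood (log2 fold change 2.02, adjusted p = 0.017). Etfa, which passes electrons from fatty acid oxidation, rose in the HUPO ankle, at 125 CPM against 64.7 CPM in HUPO blood (log2 fold change 1.06, adjusted p = 0.0203), and Coq7, of coenzyme Q synthesis, rose in the control ankle, at 31.0 CPM against 7.59 CPM in control blood (adjusted p = 0.00177). In edgeR's test none of the 12 transcriptional regulators tested was called in either arm, with 1 higher in HUPO and 2 higher in control mice, and 0 lower in each, at an unadjusted p under 0.05. Whether these genes differ between the arms was not tested.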
